A study of Mus musculus with 22 samples.

Results

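Retained-intron transcripts are annotated RNAs of a gene that keep intronic sequence which the protein-coding transcripts of that gene have removed. They were chosen as the transcripts of the deposited count table whose type in the GENCODE mouse annotation (release M39, GRCm39) is retained intron, and no measured value entered that choice. Of 62492 transcripts in the table, 15036 (24.1%) were of this type, in 6599 genes. Nearly all of them, 14908, lay in 6507 genes that also had protein-coding transcripts in the table, so that 44.9% of the 14478 genes with a protein-coding transcript had at least 1.

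RNA was sequenced from 22 libraries of cells of TCL1-355 TKO, a murine leukemia line from the transgenic Eμ-TCL1 model of chronic lymphocytic leukemia (CLL), in which the TCL1 oncogene is driven in B cells. All groups share the lesions of the line, which include biallelic loss of CDKN2A and CDKN2B. In NFKBIE-ko cells, exon 2 of Nfkbie had been targeted with a Cas9 ribonucleoprotein, whereas NFKBIE-wt cells were mock-edited. The genotypes were kept apart while passed through 2 mice for 21 days, transplanted into the peritoneum of C57BL/6 mice and recovered after 10 days from the spleen (4 NFKBIE-ko and 4 NFKBIE-wt samples) or the peritoneal cavity (PC, 4 and 4), whereas the in vitro samples (3 and 3) were cells taken from spleens of 3 mice and cultured for 2 weeks. The leukemic cells were not purified for these libraries, so that RNA of host cells is present, and fewer cells of a type and less RNA per cell cannot be told apart. The recipient mice were 2 to 3 months of age. Cells of spleen and PC came from the same sets of transplanted mice. The authors describe fewer mice per genotype than spleen and PC samples together, so that some libraries of these compartments share a mouse. The labels do not tie them. Tests between compartments, and genotype tests over or averaged over compartments, treat them as separate, so that their p-values are not those of independent animals. Where nothing says that samples of a group came from separate animals or cultures, p-values measure the spread between these samples only. Read plainly, the authors' account gives each genotype its own mouse of the 2 in the passage. The spleen and PC samples of a genotype then descend from the same donor mouse, and genotype and passage cannot be told apart in these compartments.

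Splicing removes introns from the precursor RNA between a 5′ splice site (donor), which usually opens with GT, and a 3′ splice site (acceptor), which usually ends with AG. Transcripts that keep an intron are often held in the nucleus or, once they meet a ribosome, degraded by nonsense-mediated decay, and many genes of the splicing machinery itself are known to make such transcripts. IκBε, the protein of Nfkbie, holds NF-κB dimers inactive in the cytoplasm.

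Splice sites of introns kept whole by transcripts of genes named below are printed first, 5′ to 3′ on the strand of the gene, each as 6 exonic and 24 intronic bases at the donor and the reverse at the acceptor. Shares and ratios of a gene sum all its retained-intron transcripts, so they need not rest on these introns. Tia1 has 12 such transcripts, and Tia1-207, the highest per base of length, holds no whole intron. Capitals mark the first 6 bases of the intron in a donor and the last 2 in an acceptor. Nfkbie-202 keeps intron 2 of 5 (chr17:45869524-45870133, forward strand, 610 bases), which in the annotation follows exon 2. Snrpa1-204 keeps introns 5 and 6 of 8 (chr7:65719275-65719866 and chr7:65719947-65720337, forward strand), Srsf2-203 intron 2 of 2 (chr11:116741788-116742846, reverse strand), Rpl4-203 intron 3 of 9 (chr9:64082583-64082865, forward strand) and Tia1-212 introns 4 and 5 of 12 (chr6:86395915-86396082 and chr6:86396116-86397305, forward strand), of which the shorter is printed. Il4i1-205 keeps intron 5 of 8 (chr7:44486913-44487412, forward strand).
Nfkbie intron 2 donor: taccagGTGAGTagagagagaaggctatgc
Nfkbie intron 2 acceptor: cccgtgacccctctatgcctacAGacagca
Snrpa1 intron 5 donor: ctcaaaGTGAGTattgcgcactgctgtgag
Snrpa1 intron 5 acceptor: actctgtgtgtggtgttgctgtAGgagcgt
Snrpa1 intron 6 donor: caaaacGTAAGAtacggatatccaacttaa
Srsf2 intron 2 donor: aaaatgGTAATGtctgcgggaatctgagac
Srsf2 intron 2 acceptor: gaacctctttcttttcaaacctAGatgaat
Rpl4 intron 3 donor: ggaaatGTATCCttgattagtgctcttggc
Rpl4 intron 3 acceptor: gttaattcttgacaaagaaaacAGatgtgt
Il4i1 intron 5 donor: tcacagGTGAGGtcccacctacccaggcag
Il4i1 intron 5 acceptor: tctcaagcagcctcccacttctAGgatctt
Tia1 intron 4 (whole, 168 bases): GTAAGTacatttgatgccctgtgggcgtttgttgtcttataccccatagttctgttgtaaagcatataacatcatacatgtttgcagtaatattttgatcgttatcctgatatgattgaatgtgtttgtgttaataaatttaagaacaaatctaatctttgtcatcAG

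The donor of Rpl4 intron 3 opens with GTATCC, a start found in introns of the minor class, which the U12 spliceosome removes. Of the introns printed, Tia1 intron 4 alone opens with GTAAGT, letters that pair well with the RNA of the U1 particle.

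As a check of the labels, marker genes of host cells set 2 libraries apart from their groups. Among NFKBIE-wt samples, the library labelled spleen replicate 4 had a summed granulocyte level (11 genes) of 0.117 CPM, against 68.0 to 402 CPM in the other spleens, and an erythroid level (10 genes) of 6.94 CPM, whereas the one labelled in vitro replicate 3 had 218 CPM and 1537 CPM, against 0.154 to 5.03 CPM and 12.1 to 25.6 CPM in the other cultures. By these sums the first resembled the cultures and the second the spleens, and whether their labels were exchanged was not tested. In the 3 NFKBIE-ko cultures 7 of the 11 granulocyte genes, among them S100a8, S100a9 and Elane, were at 0 in every library. The labels were kept, and the results that changed most without these 2 libraries are given with and without them. The 22 totals lay between 24037000 and 26581000 estimated counts, 3 counts correspond to 0.107 to 0.134 CPM, and limits and intervals from counts cover counting error only.

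Retained-intron transcripts were short, and so were the introns that some of them kept whole. Their median exonic length was 897 bases in 3 exons, against 2524 bases in 7 exons for protein-coding transcripts. A whole intron of the canonical transcript of the gene was kept by 4832 of them, and 684 kept a whole intron of another protein-coding transcript. The remaining 9520 held no whole annotated intron, and 9260 of these started or ended inside an intron of the canonical transcript. The 5877 introns kept whole, in 3001 genes, had a median length of 258 bases (quartiles 112 and 694) and a GC content of 51.3%, against 1246 bases (433 and 2890) and 45.0% for 77480 other introns of canonical transcripts of genes with retained-intron transcripts. GTAAGT opened 9.92% of the introns kept and 13.6% of the others, while a U12-type start (ATATCC or GTATCC, read on the strand of the gene) opened 0.783% (46 introns) and 0.577% (447 introns). These are properties of the annotation, which were compared without a test because introns of a gene are not independent.

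**Figure D1:**
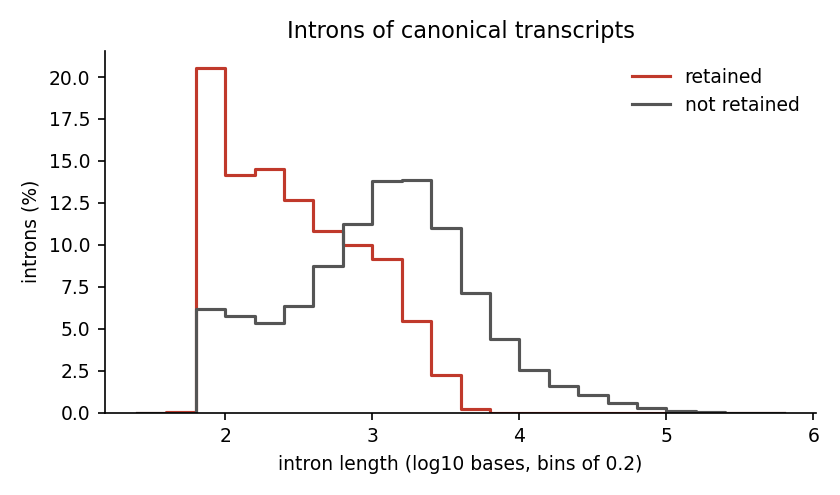
Lengths of introns of canonical transcripts (log10 of bases, bins of 0.2, horizontal axis) as the percent of introns in each set (vertical axis). Introns kept whole by a retained-intron transcript (red, median 258 bases) lie to the left of those that are not (grey, median 1246 bases).

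The counts were concentrated in few members. The 20 highest retained-intron transcripts held 15.9% of all their counts, and the 100 highest held 31.1%. A mean of at least 1 CPM was reached by 3718 transcripts, 4172 stayed below 0.1 CPM, and 5546 were above 0 in every library. Per length, the median level was 0.478 TPM, against 1.69 TPM for protein-coding transcripts. Of the 10 members with the highest levels per length, 5 were from genes of ribosomal proteins. Among the 10 were Rps16-203 at 1221 TPM, Rps20-201 at 1200 TPM and Rps26-202 at 592 TPM, beside H2-K1-215 of the MHC class I heavy chain at 824 TPM and Ncl-202 of nucleolin at 700 TPM. Within 6235 genes with enough counts, the median gene had 2.24% of its retained-intron and protein-coding counts on retained-intron transcripts, and 156 genes had at least 50%. The genes of SR proteins and CLK kinases, which bind splicing enhancers or phosphorylate the proteins that do, had a median of 11.1% over 23 genes. Other RNA-binding proteins of splicing had 3.37% over 31 genes and the spliceosome core 2.93% over 32. Genes of MHC and antigen presentation had 5.30% over 18 and those of the cell cycle 0.701% over 21.

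Retained-intron transcripts took between 2.24% and 3.17% of all counts of a library. In the PC, the shares were 2.78%, 2.42%, 2.67% and 2.49% in NFKBIE-ko and 2.92%, 2.89%, 3.09% and 2.86% in NFKBIE-wt, so that the genotypes did not overlap. The spleens had 2.43%, 3.05%, 2.31% and 2.24% in NFKBIE-ko and 3.17%, 2.70%, 2.96% and 2.57% in NFKBIE-wt, with NFKBIE-ko replicate 2 above 3 of the 4 NFKBIE-wt libraries. The cultures had 2.46%, 2.44% and 2.52% in NFKBIE-ko and 2.57%, 2.40% and 3.15% in NFKBIE-wt, where the highest value was that of the library labelled replicate 3.

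The share was lower in NFKBIE-ko than in NFKBIE-wt, by 0.309 percentage points over the 3 compartments (2.52% against 2.83%; exact permutation test within compartments, two-sided, p = 0.00796, Benjamini-Hochberg adjusted p over 7 tests of 0.0557). Within genes with both kinds of transcript it was lower by 0.5681 points (4.04% against 4.61%, exact permutation p = 0.00582, adjusted p of 0.0407). These tests over compartments take spleen and PC libraries as separate, although some share a mouse. By compartment, the difference in the share of all counts was -0.352 points in the PC (exact permutation p = 0.0286, the smallest p that 4 against 4 samples allow), -0.340 points in the spleen (exact permutation p = 0.2) and -0.235 points in vitro (exact permutation p = 0.5, where the smallest p is 0.1). The difference in vitro rested on the culture set apart above, and was -0.0157 points without it (exact permutation p = 0.9). Without the 2 libraries set apart above, the differences over compartments were -0.267 points of all counts (exact permutation p = 0.0136) and -0.491 points within genes (exact permutation p = 0.00976). Counted per base of transcript length, the difference in the share of all counts was -0.304 points (exact permutation p = 0.0516).

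Other measures moved with genotype. The summed level of 17 myeloid genes, all above 0 in every PC library, was 4698 to 6475 CPM in NFKBIE-ko PC and 1210 to 2319 CPM in NFKBIE-wt PC, and that of 13 genes of CD8+ cytotoxic and NK cells was 53.0 to 132 CPM in NFKBIE-ko spleens and 3.12 to 16.1 CPM in NFKBIE-wt spleens. Immunoglobulin transcripts took a smaller percent of counts in NFKBIE-ko (difference over compartments of -0.457 points, exact permutation p = 4.1e-05). The part of these measures in the lower share was not tested. Transcripts annotated to undergo nonsense-mediated decay were also lower in NFKBIE-ko PC (-0.290 points of all counts, exact permutation p = 0.0286), so that the log2 ratio of retained-intron to decay transcripts differed by 0.01 there (exact permutation p = 0.857).

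**Figure D2:**
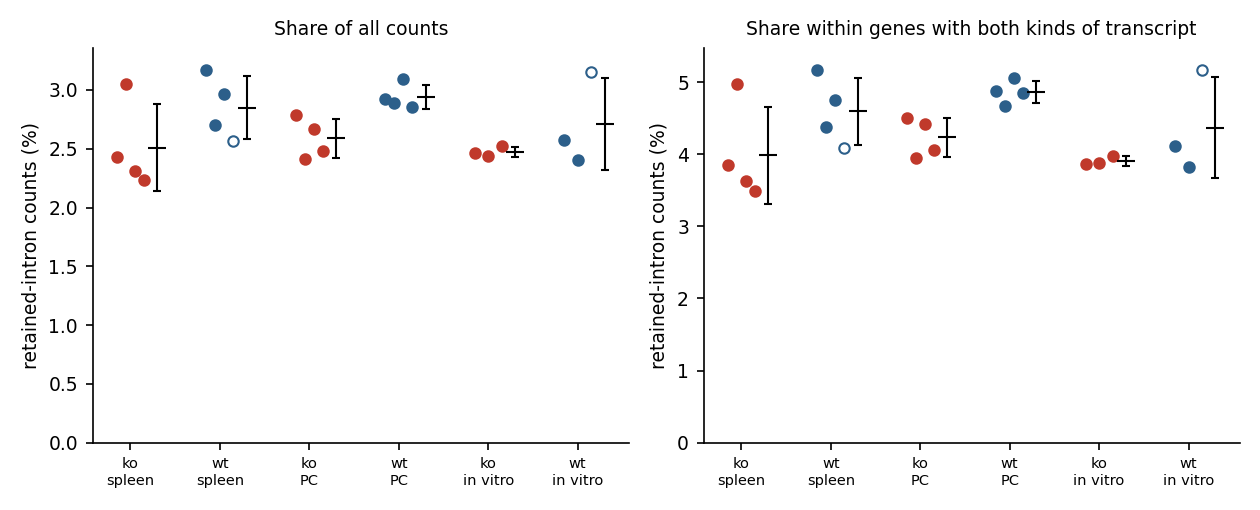
Percent of counts on retained-intron transcripts (vertical axes) per library, for all counts (left) and within genes that also have protein-coding transcripts (right), in the 6 groups (NFKBIE-ko red, NFKBIE-wt blue, 3 or 4 libraries each). Open circles are the NFKBIE-wt libraries labelled spleen replicate 4 and in vitro replicate 3, bars are mean ± SD, and in the PC all NFKBIE-ko points lie below all NFKBIE-wt points.

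With all libraries, no difference between compartments in the share of all counts passed the test. PC exceeded spleen by 0.084 points (2.76% against 2.68%, exact permutation p = 0.495), PC exceeded culture by 0.173 points (exact permutation p = 0.148; 0.282 points without the culture set apart above, exact permutation p = 0.0133) and spleen exceeded culture by 0.088 points (exact permutation p = 0.593). Within genes, PC exceeded culture by 0.410 points (exact permutation p = 0.0522), and without that culture by 0.610 points (exact permutation p = 0.00381). The difference between the genotype effects in spleen and PC was 0.012 points of all counts (exact permutation p = 0.971).

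Nfkbie, the targeted gene, had a higher share of its counts on its 1 retained-intron transcript in the libraries labelled NFKBIE-ko. Nfkbie-202 (ENSMUST00000233379, chr17:45866665-45874092) carries intron 2, whose splice sites are printed above, and no exon of another gene overlaps it. It took 24.98%, 31.1%, 21.3% and 22.6% of the retained-intron and protein-coding counts of Nfkbie in NFKBIE-ko spleens and 8.57%, 15.1%, 13.0% and 8.596% in NFKBIE-wt spleens. In the PC it took 36.7%, 21.3%, 30.7% and 28.0% in NFKBIE-ko and 12.4%, 13.3%, 7.08% and 9.29% in NFKBIE-wt. In vitro it took 22.7%, 24.5% and 29.8% in NFKBIE-ko and 9.95%, 8.33% and 15.4% in NFKBIE-wt. All 11 NFKBIE-ko libraries, the lowest at 21.3%, lay above all 11 NFKBIE-wt libraries, the highest at 15.4%.

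Over compartments the share of Nfkbie-202 differed by 15.6 percentage points (exact permutation test within compartments, two-sided, p = 2e-05, the smallest that the design can give), and by 16.0 points without the 2 libraries set apart above (exact permutation p = 4.1e-05). In edgeR's quasi-likelihood test of the ratio of retained-intron to protein-coding counts, the log2 change of the ratio averaged over compartments was 1.58 (standard error 0.19, Benjamini-Hochberg adjusted p of 0.00053), and 1.63 without these libraries (adjusted p of 0.00087). By compartment the log2 change was 1.41 among spleens, 1.83 among PC samples and 1.49 among cultures, and none of these passed the threshold (edgeR, Benjamini-Hochberg adjusted p of 0.408, 0.138 and 0.965). The test averaged over compartments and the permutation test of this gene were chosen after its values had been seen. Both take spleen and PC libraries as separate, although some share a mouse.

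The level of Nfkbie-202 itself was 23.8 ± 5.62 CPM (SD, n = 4) in NFKBIE-ko spleens against 9.14 ± 2.20 CPM (n = 4), 16.6 ± 5.61 against 8.14 ± 2.18 CPM in the PC (n = 4 each), and 13.8 ± 1.07 against 10.3 ± 2.02 CPM in vitro (n = 3 each). The genotypes did not overlap in any compartment, and the log2 fold change averaged over compartments was 0.94 (standard error 0.16, edgeR with Benjamini-Hochberg adjusted p of 0.0011), short of the fold threshold of 1. The summed protein-coding counts of Nfkbie changed by -0.94 on the log2 scale in the PC (adjusted p of 8e-05 from edgeR on gene sums with Benjamini-Hochberg adjustment), by -0.04 in the spleen (adjusted p of 0.951) and by -1.20 in vitro (adjusted p of 0.485). The log2 change of the ratio between PC and spleen was 0.09 (adjusted p of 0.848 from edgeR with Benjamini-Hochberg adjustment). Reads that carry edited bases at exon 2 were not examined here, and their part in the split between the 2 kinds of transcript was not tested.

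Il4i1, which encodes an amino-acid oxidase induced by IL-4 in B cells and made by myeloid cells, moved the other way. Its retained-intron share was 13.5%, 10.0%, 9.63% and 11.7% in NFKBIE-ko PC and 61.5%, 61.0%, 68.0% and 58.6% in NFKBIE-wt PC. In the spleens it was 9.53%, 8.01%, 7.23% and 8.21% in NFKBIE-ko and 44.7%, 32.8%, 39.8% and 13.6% in NFKBIE-wt, the last being the library labelled replicate 4. In vitro it was 10.5%, 11.1% and 11.1% in NFKBIE-ko and 44.3%, 11.5% and 52.3% in NFKBIE-wt. The genotypes did not overlap in any compartment. The ratio fell by 3.72 on the log2 scale in the PC (standard error 0.23, edgeR with Benjamini-Hochberg adjusted p of 0.00102) and by 2.71 averaged over compartments (adjusted p of 0.00053). The summed protein-coding counts of Il4i1 changed by -0.22 in the PC (adjusted p of 0.36, edgeR with Benjamini-Hochberg adjustment). All 1404 exonic bases of Il4i1-205 are also exonic in Tbc1d17 on the opposite strand, and whether the counting used strand is not given in the sources used here, so that reads of the 2 genes may not have been told apart.

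**Figure D3:**
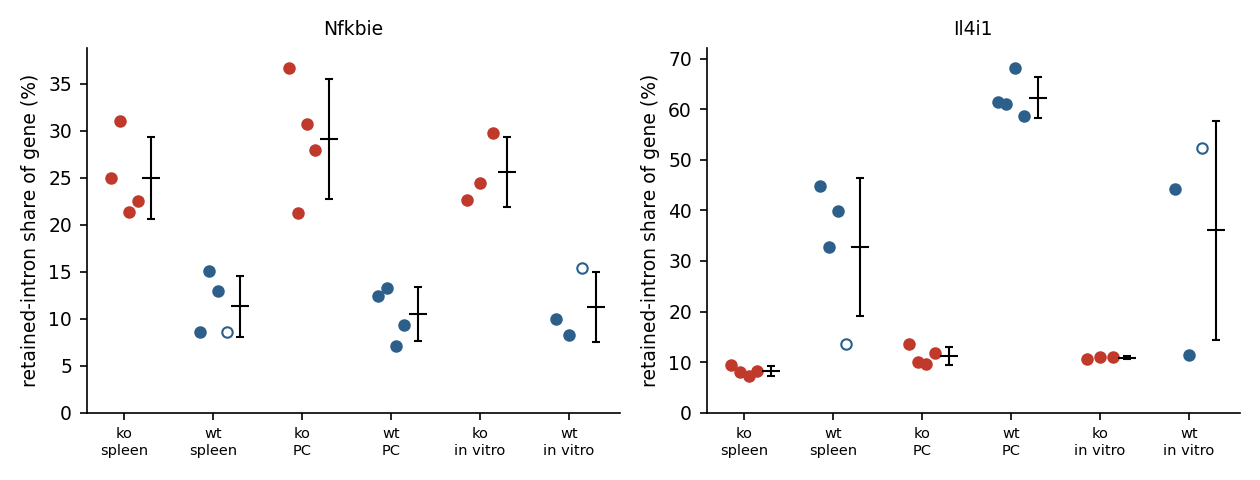
Percent of the retained-intron and protein-coding counts of Nfkbie (left) and Il4i1 (right) that fell on retained-intron transcripts (vertical axes), per library in the 6 groups, with mean ± SD. Open circles are the NFKBIE-wt libraries labelled spleen replicate 4 and in vitro replicate 3. For Nfkbie every NFKBIE-ko point is at or above 21.3% and every NFKBIE-wt point at or below 15.4%.

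In the PC the ratio of retained-intron to protein-coding counts changed in 3 of 4057 genes (edgeR, Benjamini-Hochberg adjusted p below 0.05 over all 7836 gene and class pairs tested), 1 higher (0.0128% of all pairs were higher) and 2 lower (0.0383%). The 1 that rose was Sirt2, an NAD-dependent deacetylase, at 7.16%, 9.005%, 7.47% and 8.05% in NFKBIE-ko PC and 2.33%, 2.08%, 1.93% and 1.94% in NFKBIE-wt PC. The log2 change was 2.02 (standard error 0.17, adjusted p of 0.00776). Beside Il4i1, Fxyd5, a regulator of the sodium pump, fell from a mean of 4.57% to 0.164% (log2 change of -4.77, edgeR with Benjamini-Hochberg adjusted p of 0.0345). In the spleen 0 of 3909 genes passed in either direction (0% of all pairs, edgeR), where 25 were higher and 537 lower at an unadjusted p below 0.05, and 0 of 4012 in vitro (0% of all pairs), where 40 were higher and 75 lower.

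Averaged over compartments, the ratio was higher in 2 genes and lower in 21 of 4051 (0.0754% and 0.478% of all pairs). Beside Nfkbie, Mipol1 rose (log2 change of 1.50). Among those that fell were 2 genes of core splicing particles, Snrnp70 (U1 snRNP, by 0.84 on the log2 scale) and Snrpa1 (U2 snRNP, by 0.69), and Cflar, an inhibitor of caspase-8 (by 1.20), each below an adjusted p of 0.05 in edgeR with Benjamini-Hochberg adjustment. Without the 2 libraries set apart above, 1 gene was higher and 8 lower, and the adjusted p of Snrnp70 was 0.0533 and that of Snrpa1 0.051. The median log2 change over all genes was -0.27, and -0.24 without these libraries. In the spleen the median log2 change of the ratio was -0.42 for retained-intron and 0.02 for nonsense-mediated decay transcripts, and in the PC it was -0.23 and -0.22.

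Of single transcripts, 73 retained-intron transcripts were higher and 105 lower in NFKBIE-ko than NFKBIE-wt PC (1.14% and 1.63% of 6428 tested; 4.14% and 1.91% of all transcripts; edgeR, adjusted p below 0.05 and log2 fold change beyond 1). For 67 of the 171 whose gene was tested, the summed protein-coding counts of the gene were called in the same direction. H2-Eb1-204, of an MHC class II chain, was at 64.6, 90.7, 68.6 and 81.7 CPM in NFKBIE-ko PC and 29.6, 23.6, 25.9 and 28.2 CPM in NFKBIE-wt. Its log2 fold change was 1.47, and its coding sum rose by 1.25 on that scale. Rgs3-214, of a regulator of G-protein signaling, was at 1.062, 1.01, 2.54 and 0.544 CPM in NFKBIE-ko PC and at 0 in the NFKBIE-wt PC libraries, at least 10.8-fold higher against a floor of 3 counts per library. Gpr162-202 rose as well, from 0.0569 to 1.85 CPM.

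Among those lower in NFKBIE-ko PC, Fxyd5-214 was at 0 in all 4 NFKBIE-ko libraries and at 6.20, 2.54, 1.77 and 10.8 CPM in NFKBIE-wt, at least 42.7-fold lower. Fosb-204, of an immediate early AP-1 gene, was at 2.54, 0.169, 0.490 and 0.544 CPM against 101, 143, 4.55 and 14.7 CPM. In culture it was below 0.12 CPM in 5 libraries and at 104 CPM in the culture set apart above, and among spleens it was at 0.1505 CPM in the spleen set apart above and at 34.6 CPM or more in the others. S100a8-202, of the granulocyte protein calgranulin A, was at 0.0523 ± 0.0534 CPM (SD, n = 4) against 1.76 ± 1.01 CPM (n = 4). The summed level of 11 granulocyte genes was likewise 41.7 to 61.1 CPM in NFKBIE-ko PC and 184 to 506 CPM in NFKBIE-wt PC, and its part was not tested.

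In the spleen 1 retained-intron transcript was higher and 2 lower (0.141% and 0.171% of all transcripts). Rnf32-210 was at 8.76, 5.87, 8.01 and 7.11 CPM in NFKBIE-ko and at 0.999, 0.899, 0.663 and 0.1505 CPM in NFKBIE-wt (log2 fold change of 3.45, adjusted p of 0.0486, edgeR with Benjamini-Hochberg adjustment). Cdc25b-207, of a cell cycle phosphatase, was at 0 in NFKBIE-ko spleens and between 0.715 and 1.36 CPM in NFKBIE-wt spleens, at least 8.97-fold lower. Zdhhc7-205, of a palmitoyltransferase, was at 0 in NFKBIE-ko spleens and 0.677 to 1.54 CPM in NFKBIE-wt spleens, but at 0.683 to 2.79 CPM in NFKBIE-ko PC and 0 in NFKBIE-wt PC. These calls of the spleen depended on single libraries, with 0 to 8 transcripts called when 1 was left out. In vitro 0 retained-intron transcripts were called in either direction (0% of all transcripts, edgeR). There, 53 were higher and 91 lower at an unadjusted p below 0.05 with a log2 fold change beyond 1, and DESeq2 called 10 and 10. Averaged over compartments, 43 were higher and 118 lower (1.2% and 1.52% of all transcripts), and 40 and 69 without the 2 libraries set apart above.

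The compartments differed in the balance within genes, mainly between PC and spleen. The ratio of retained-intron to protein-coding counts was higher in PC than spleen in 394 of 4051 genes (9.73%) and lower in 74 (1.83%), while 6.54% and 2.75% of all 7953 gene and class pairs were higher and lower (edgeR, adjusted p below 0.05). The median log2 change was 0.22. In the other classes of transcript the calls were more even: for nonsense-mediated decay 48 of 1969 genes were higher and 87 lower (median -0.13), and for transcripts without a defined coding sequence 78 of 1933 were higher and 58 lower (median 0.00). In 371 of the 394 genes the coding sum was not itself called (adjusted p below 0.05 and log2 fold change beyond 1), in 19 it was lower and in 4 higher. Without the 2 libraries set apart above, 399 genes were higher and 87 lower.

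Many splicing genes were among them. Of 76 tested genes in the lists of SR proteins and CLK kinases, other RNA-binding proteins of splicing and the spliceosome core, 33 were higher in PC (43.4%) and 1, Elavl1, was lower. Of the SR protein and CLK kinase genes 9 of 23 were higher and 0 lower (median log2 change of 0.52). Of the other RNA-binding proteins 11 of 26 were higher and 1 lower (median 0.44), and of the spliceosome core 13 of 27 were higher and 0 lower (median 0.83). The lists are read beside 394 higher and 74 lower of all 4051 genes (median 0.22), and no test of a list was made. In all 33 genes the log2 fold change of the coding sum was negative. That sum is the denominator of the ratio by which these genes were picked, which favors a negative sign. For Srrm2 (-0.13) and Rbm5 (-0.26) it did not pass an adjusted p below 0.05 (0.62 and 0.107, edgeR with Benjamini-Hochberg adjustment), and for the others it did. Single retained-intron transcripts of these lists moved less than the ratios. For SR proteins and CLK kinases 3 of 67 were called higher and 1 lower (median log2 fold change of 0.15). For the other RNA-binding proteins 11 of 105 were higher and 3 lower (median -0.02), and for the spliceosome core 2 of 72 and 1 (median 0.11). Of all 9019 retained-intron transcripts tested, 6.73% were higher and 2.53% lower (median 0.16).

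**Figure D4:**
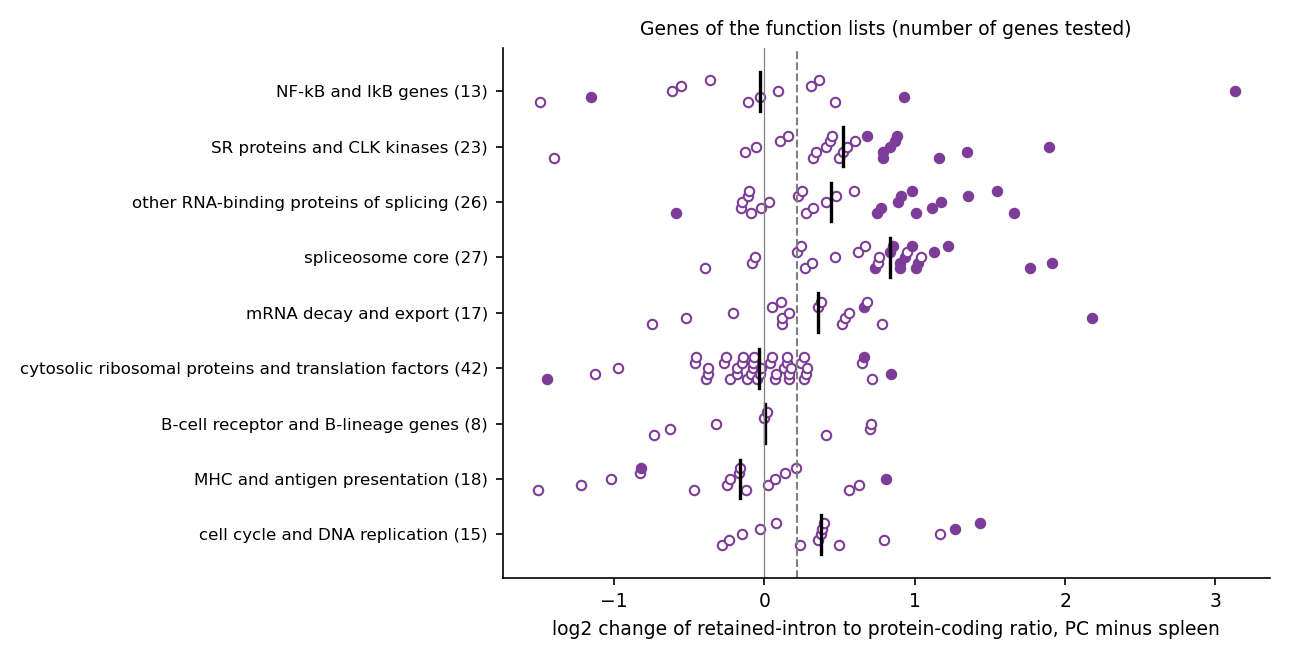
Log2 change of the ratio of retained-intron to protein-coding counts between PC and spleen (horizontal axis) for the tested genes of 9 function lists (vertical axis, number of genes in parentheses). Filled points passed an adjusted p below 0.05, black bars are list medians, and the dashed line is the median of all genes, 0.22. The 3 splicing lists have their medians to the right of that line.

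Snrpa1, a protein of the U2 snRNP, had 10.3%, 8.16%, 11.7% and 12.4% of its counts on retained-intron transcripts in NFKBIE-ko PC and 12.6%, 12.4%, 15.2% and 10.5% in NFKBIE-wt PC. In the spleens it had 1.66%, 2.78%, 1.802% and 2.06% in NFKBIE-ko and 5.82%, 5.02%, 6.90% and 4.28% in NFKBIE-wt. All PC libraries lay above all spleen libraries, with a log2 change of the ratio of 1.91 (standard error 0.16, edgeR with Benjamini-Hochberg adjusted p of 4.8e-06). Its coding sum fell (log2 fold change of -0.92, edgeR with Benjamini-Hochberg adjusted p of 1.1e-09).

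Snrnp70, a protein of the U1 snRNP, whose RNA pairs with the donor, had 41.2%, 35.8%, 42.5% and 40.2% in NFKBIE-ko PC and 58.7%, 48.3%, 59.2% and 50.7% in NFKBIE-wt PC. Its spleens had 12.5%, 22.3%, 10.9% and 12.7% in NFKBIE-ko and 26.6%, 29.0%, 28.0% and 33.8% in NFKBIE-wt. The log2 change was 1.77 (standard error 0.18), with no overlap between PC and spleen. Luc7l2, a partner of the U1 snRNP, rose from 16.8% to 36.5% (1.55, standard error 0.18), and Tia1, which helps U1 to bind weak donors, from 11.6% to 28.2% (1.66, standard error 0.25), again with no overlap between PC and spleen.

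Srsf2, an SR protein that binds exonic enhancers, had 9.59%, 11.3%, 12.4% and 11.1% in NFKBIE-ko PC and 20.0%, 15.7%, 14.2% and 13.5% in NFKBIE-wt PC. Its spleens had 4.01%, 7.15%, 2.59% and 2.84% in NFKBIE-ko and 9.18%, 9.45%, 8.57% and 6.39% in NFKBIE-wt. The lowest PC library was just above the highest spleen library, and the log2 change was 1.34 (standard error 0.21). In Srsf2-203, which keeps the intron printed above, 638 of 1814 exonic bases are also exonic in Mettl23 and 536 in Mfsd11, both on the opposite strand. Rsrp1, a gene of an arginine and serine rich protein, had most of its counts on its 1 retained-intron transcript, on average 74.6% in spleen and 92.1% in PC (log2 change of 1.89).

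Other splicing genes whose ratio rose were Srrm1 (log2 change of 1.16), a coactivator of SR proteins, Hnrnpa2b1 (0.98), Sf3b1 (1.01) and U2af1 (0.93), which recognize the branch site and the acceptor, and the helicases Dhx15 (0.90) and Ddx23 (1.12). Each passed an adjusted p below 0.05 in edgeR with Benjamini-Hochberg adjustment.

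**Figure D5:**
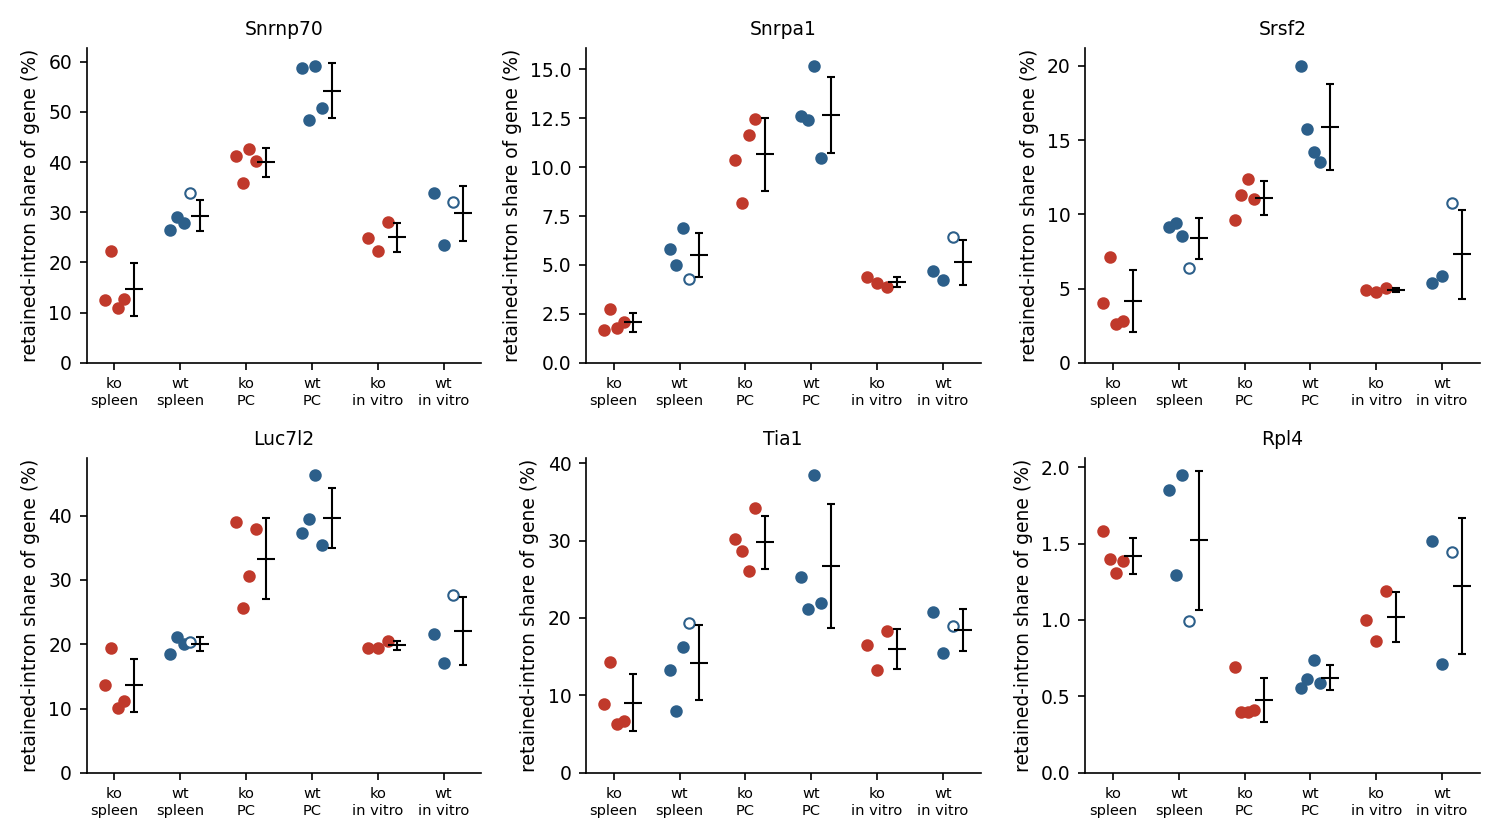
Percent of the counts of 6 genes on retained-intron transcripts (vertical axes, different scales) per library in the 6 groups, with mean ± SD. Open circles are the NFKBIE-wt libraries labelled spleen replicate 4 and in vitro replicate 3. For Snrnp70, Snrpa1, Srsf2, Luc7l2 and Tia1 the PC libraries lie above the spleen libraries, and for Rpl4 they lie below.

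Within NFKBIE-ko samples alone, 368 genes were higher and 50 lower in PC than spleen (5.55% and 1.92% of all pairs), and within NFKBIE-wt samples 6 were higher and 2 lower (0.151% and 0.0754%). Snrpa1 (log2 change of 2.50 in NFKBIE-ko and 1.33 in NFKBIE-wt), Snrnp70 (2.02 and 1.52), Luc7l2 (1.70 and 1.39) and Ccdc12 (2.60 and 2.83) passed in both genotypes. Srsf2 (1.65 and 1.04) and Tia1 (2.16 and 1.16) passed in NFKBIE-ko and not in NFKBIE-wt. The test of the difference between the genotypes called 0 of 4051 genes, so that none was shown to differ between them. The median log2 change over all genes was 0.29 in NFKBIE-ko and 0.14 in NFKBIE-wt.

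Of the remaining lists, those of ribosomal proteins and translation factors had a median log2 change of -0.04 over 42 genes. Among those called was Rpl4, a protein of the large subunit, lower at 0.549% in PC against 1.47% in spleen (log2 change of -1.45, standard error 0.18, adjusted p of 0.00014, edgeR with Benjamini-Hochberg adjustment), with no overlap. Rpl4-203 keeps the intron with the GTATCC donor, and 99 of its 856 exonic bases are those of the small nucleolar RNA Snord16a. Of the mRNA decay and export genes 2 of 17 had a higher ratio, Thoc1 and Thoc2 of the complex that couples transcription to export. Of MHC genes 1 of 18 was higher (Psmb9) and 1 lower (H2-Ab1), of cell cycle genes 2 of 15 were higher (the cyclins Ccnl1 and Ccnl2, which bind splicing kinases), and of B-cell receptor and B-lineage genes 0 of 8 were called.

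The NF-κB and IκB list had 2 of 13 genes higher and 1 lower in PC. Nfkbia, of the inhibitor IκBα, rose from 0.388% to 2.07% (log2 change of 3.13, standard error 0.64), with overlap between PC and spleen. Ikbkb, of the kinase IKKβ, rose from 10.1% to 16.9% (log2 change of 0.93), while Nfkb2, of the precursor p100, fell from 1.96% to 1.02% (by 1.16 on the log2 scale). Outside the lists, Ccdc12, which encodes a spliceosome-associated protein, rose from 4.58% to 21.8% (log2 change of 2.71) and Arap1 from 0.495% to 2.87% (2.51). Synrg, Lipg and Hsd3b7 fell, by 5.35, 4.18 and 3.75 on the log2 scale. Their retained-intron counts were low, with means over the libraries of 15.2, 11.3 and 37.2, against a required mean of 10. Of the 2286 exonic bases of Hsd3b7-210, 1717 are also exonic in Gm49388 on the same strand and 1246 in 9430064I24Rik on the opposite strand.

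Introns kept whole by transcripts of the 394 genes with a higher ratio in PC had a median length of 339 bases and a GC content of 49.2% (654 introns in 288 genes), those of the 74 genes with a lower ratio 239 bases and 53.6% (54 introns in 26 genes), and those of genes not called 245 bases and 51.6% (4206 introns in 2038 genes). These values are a description, since introns of a gene share its counts.

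In single transcripts 607 were higher and 228 lower in PC than spleen (6.73% and 2.53% of 9019 tested; 7.22% and 4.19% of all transcripts; 718 and 233 without the 2 libraries set apart above). For 277 of the 817 whose gene was tested, the coding sum of the gene was called in the same direction, and for 2 in the opposite direction. Fn1-202, of fibronectin, was between 19.8 and 125 CPM in the PC libraries and 0 to 2.12 CPM in the spleens (log2 fold change of 7.17), and Ccl6-202, of a macrophage chemokine, was at 218, 358, 375 and 317 CPM in NFKBIE-ko PC, at 137, 39.7, 72.1 and 163 CPM in NFKBIE-wt PC and at 4.67 CPM or less in every spleen. Bst1-202, of a myeloid and stromal surface enzyme, rose from 0.0152 to 2.15 CPM. Among those that fell, Cdk1-204, of the mitotic kinase, went from 18.1 to 7.93 CPM (log2 fold change of -1.20) together with its coding sum (-0.91), and Ddx54-203 went from 7.39 to 1.39 CPM (-2.41). The summed myeloid level was 1210 to 6475 CPM in PC and 223 to 603 CPM in spleen, and mitochondrial transcripts took 1.38 points more of the counts in PC (exact permutation p = 0.00327). Their part in the differences between PC and spleen was not tested.

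Between PC and culture fewer genes passed. The ratio was higher in PC in 109 of 4051 genes and lower in 41 (2.44% and 1.02% of all pairs), and 205 and 56 without the 2 libraries set apart above. Of the 76 splicing genes 21 were higher and 0 lower, among them Snrpa1 (log2 change of 1.44), Srsf3 (1.33), Srsf2 (1.29), Snrnp70 (1.25) and Luc7l2 (1.12). Sirt2 rose from 0.835% in culture to 5.00% in PC (2.43), and Nfkb2 fell by 1.397 on the log2 scale. Of single transcripts 446 were higher and 229 lower in PC (7.49% and 3.7% of all transcripts). For 328 of the 661 whose gene was tested, the coding sum of the gene was called in the same direction, and for 1 in the opposite direction. Fn1-202 was at 0 in all 6 cultures, at least 578-fold lower than in the PC, Prtn3-204, of a granulocyte protease, was at 10.1 CPM in PC against 0.0329 CPM, and Agbl5-214 was at 0 in the PC and 1.79 CPM in culture. Of the 2352 exonic bases of Agbl5-214, 1581 are also exonic in Ost4 on the opposite strand. The PC and spleen comparison and the PC and culture comparison share the PC libraries.

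Between spleen and culture the counts were lowest, and they rested on the libraries set apart above. The ratio was higher in 0 genes and lower in 1 (0.0251% and 0.0126% of all pairs; 147 higher and 475 lower at an unadjusted p below 0.05), and in 98 and 115 without these libraries. That gene was Rbm15, an RNA-binding protein of the m6A writer complex, at 48.2% in spleen against 65.0% in culture (log2 change of -1.002, adjusted p of 0.0491, edgeR with Benjamini-Hochberg adjustment). Of single transcripts 54 were higher and 71 lower (1.56% and 1.05% of all transcripts), against 322 and 290 without these libraries. H2-Ob-204, of a chain that modulates MHC class II loading, was at 1.38 ± 0.417 CPM (SD, n = 8) in spleen and 2.97 ± 0.734 CPM (n = 6) in culture, with no overlap. The genotype effect differed between spleen and PC in 3 retained-intron transcripts, all lower in the difference (0 higher; 0.0252% and 0.124% of all transcripts), of Snx32, Kcnn4 and Zdhhc7 (1 higher and 4 lower without the 2 libraries set apart above).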

How the data were processed

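The authors estimated transcript counts with Salmon 1.8 on GRCm39 and deposited them as estimated counts (expected counts), not normalized; each transcript in the table is above 0 in at least 5 libraries. The annotation release is not given in the sources used here. Salmon divides reads among transcripts that share sequence, so counts of a retained-intron transcript include reads assigned from shared exons. Types came from GENCODE M39, a later release, in which 345 transcripts (0.619% of counts) had no match. Those without a match stayed in all fits per transcript. The library kit selects polyadenylated RNA.

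Counts were rounded. Transcripts were tested with edgeR 4.0.16 (R 4.3.3; filter on low counts, TMM, robust quasi-likelihood, Benjamini-Hochberg over all transcripts; adjusted p below 0.05 and log2 fold change beyond 1). For ratios, class sums and protein-coding sums per gene were fitted with sample and class-by-group terms (mean of 10 counts in both, adjusted p below 0.05). Genotype was fitted within each compartment and compartments over all 22 libraries. Shares were tested by exact permutation. CPM values are TMM-scaled, except marker sums. On simulated counts 194 of 200 changed transcripts were recovered with 11 false calls among 34944 (PC) and 159 of 200 ratios with 8 among 7798. Limma 3.58.1 and DESeq2 1.42.0 gave alternatives.

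Replicate numbers did not pair samples (correlations of deviations between -0.205 and 0.124), and replicates differed by more than sampling noise (chi-square per degree of freedom of at least 12.0). The rule for named items took Nfkbie, the 10 members of highest TPM, 3 per function list, and per comparison and direction the 3 largest called transcripts (at least 1 CPM, no overlap) and ratios. Other names, among them the called splicing genes, Cflar, Mipol1, H2-Eb1, Ccl6 and Cdk1, and the tests averaged over compartments were chosen after values were seen. Not every called gene is reported here. The members and lists were chosen with earlier results of these data known.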

Additional observations from a re-analysis of the deposited data

Results flagged for a closer look

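In groups of 4 libraries, 17 of 172 groups of values had 1 library far from the other 3 by Dixon's criterion, where chance gives about 1 in 20. For the retained-intron share of a gene these were Nfkbia in NFKBIE-ko spleen (0.582% in that library), Synrg in NFKBIE-ko PC (0.0590%) and NFKBIE-wt PC (0.263%), Lipg in NFKBIE-wt PC (2.27%), Ppp1r21 in NFKBIE-wt spleen (0.808%), Xdh in NFKBIE-wt spleen (100%), Rbm15 in NFKBIE-ko spleen (46.7%) and Snrnp70 in NFKBIE-ko spleen (22.3%). For the level of a transcript they were Rnf32 in NFKBIE-ko PC (2.01 CPM), Zdhhc7 in NFKBIE-ko PC (2.79 CPM), Gpr162 in NFKBIE-wt spleen (0.903 CPM), Fosb in NFKBIE-ko PC (2.54 CPM), Bst1 in NFKBIE-ko spleen (0.122 CPM), Fn1-202 in NFKBIE-wt spleen (2.12 CPM), Prtn3 in NFKBIE-ko spleen (0.231 CPM), Rapgefl1 in NFKBIE-wt PC (0.219 CPM) and Srpk3 in NFKBIE-ko spleen (1.22 CPM). The Rbm15, Snrnp70 and Srpk3 values belong to NFKBIE-ko spleen replicate 2, which also had the highest share of all counts in its group (3.05%).

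The effect of genotype on 3 retained-intron transcripts differed between spleen and PC (edgeR, Benjamini-Hochberg adjustment). The difference of the log2 fold changes, spleen minus PC, was -6.86 for Snx32 (adjusted p of 0.0093), -2.35 for Kcnn4 (adjusted p of 0.0206) and -15.8 for Zdhhc7 (adjusted p of 0.0399). For Zdhhc7 and Snx32 the size depends on the prior count, since NFKBIE-ko spleens were at 0 for both, as was NFKBIE-wt PC for Zdhhc7.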

How the results depend on the processing

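Directions held for the genotype differences in the share under every alternative run. Per base of transcript length, the difference in the PC was -0.276 points of all counts (p = 0.114, exact permutation) and -0.666 within genes (p = 0.0571, exact permutation), that over compartments -0.304, PC minus spleen reversed to -0.069, and the difference between the genotype effects in spleen and PC to -0.080 (all counts) and -0.151 (within genes). That last difference also reversed without the 20 highest transcripts (-0.048), with every count of the genes as denominator (-0.0055) and as the median over genes (-0.212), where spleen minus culture was -0.194 and genotype in the PC -0.353. Over transcripts of at least 1 CPM, PC minus culture within genes was 0.380 (p = 0.0449, exact permutation).

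Replicate numbers did not pair the samples by the criterion used, although 3 of the 4 NFKBIE-ko PC samples correlated best with the NFKBIE-ko spleen of their number. With the replicate number as a block, the PC differences kept their size, -0.352 and -0.630 (exact permutation p = 0.125, the smallest possible), and the called transcripts were 0 (genotype, spleen), 49 (genotype, PC) and 500 (PC minus spleen), with 0 and 47 ratios for genotype in the PC and PC minus spleen.

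Counts of called transcripts against 3 (genotype, spleen), 178 (genotype, PC) and 0 (genotype, culture) were 142, 384 and 20 with DESeq2 and 125, 84 and 1 in a fit of all 22 libraries, and 0 without a filter in the spleen. With no fold threshold 297 (genotype, PC) and 1342 (PC minus spleen) passed, and DESeq2 called 376 for spleen minus culture. A minimum mean of 1 count gave 311, 70 and 0 ratios for PC minus spleen, PC minus culture and spleen minus culture, and one of 30 gave 5 for genotype in the PC and 36 for spleen minus culture, where limma gave 18. Within NFKBIE-wt, 196, 187 and 0 transcripts and 8, 5 and 0 ratios were called in these 3 comparisons; within NFKBIE-ko, 445 transcripts and 17 ratios for PC minus culture and 299 transcripts and 124 ratios for spleen minus culture. Without both libraries set apart in the report, spleen minus culture was 0.245 points of all counts and 0.436 within genes, and 261 ratios were called for PC minus culture, 612 transcripts and 213 ratios for spleen minus culture, 9 ratios for genotype averaged over compartments and 5 transcripts for the difference between spleen and PC. Contrasts within a genotype and tests averaged over compartments were chosen after seeing the data. The cause of these changes was not tested.

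With 1 library left out, genotype in the PC ranged from -0.417 to -0.295 points of all counts and -0.718 to -0.536 within genes (exact permutation p of 0.0286 to 0.0571 for both), PC minus spleen from 0.174 to 0.421 within genes, PC minus culture from 0.0963 to 0.282 and 0.274 to 0.610, spleen minus culture from -0.00255 to 0.198 and -0.0106 to 0.352, and the difference between the genotype effects from -0.170 to 0.118 and -0.307 to 0.211. Called transcripts ranged from 0 to 8 (genotype, spleen), 100 to 189 (genotype, PC) and 49 to 370 (spleen minus culture), and ratios from 1 to 3 (genotype, PC), 46 to 244 (PC minus culture) and 0 to 122 (spleen minus culture). The counts for spleen minus culture were 360 and 370 when the spleen or the culture set apart in the report was left out, and 225 when NFKBIE-ko spleen replicate 2 was. For PC minus spleen within genes, 0.421 (exact permutation p = 0.022) was the value without NFKBIE-ko spleen replicate 2. The ratios for PC minus culture numbered 244 when the culture set apart was left out and 46 without NFKBIE-wt culture 2. In the spleen, 8 transcripts were called without the spleen set apart and 6 without NFKBIE-ko replicate 2, and 0 without any 1 of the others. The count for genotype in the PC was 100 without NFKBIE-ko replicate 2 and 115 without NFKBIE-wt replicate 3.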
